A study of Mus musculus with 6 samples.

Results

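Protein-induced pluripotent stem cells of the mouse (piPSC) were compared with mouse embryonic stem cells (ES), with 2 Illumina bead arrays for each of them out of 6 arrays in the study. The members were chosen by the groups the labels give: every probe of the 4 piPSC and ES arrays entered the comparison, and each gene was then weighed by whether both ES arrays and all of its probes told the same story. The labels name the piPSC cells only as protein-induced and do not give their parent line, culture or passage. The ES cells were of the R1 line, and the growth protocol describes irradiated mouse fibroblast feeders, serum and leukemia inhibitory factor. The remaining 2 arrays held OG2-MEF, fibroblasts of embryonic day 13.5 embryos whose mice carry a green fluorescent protein transgene driven by the Oct4 promoter. In the fit they only help to estimate the spread. They also entered the normalization, the detection filter and the choice of the probe that stands for a gene. Each array read biotin-labelled cRNA amplified from total RNA. The arrays of a group are labelled as biological replicates, but nothing says that separate cultures stood behind them, so the p-values describe only how these samples vary, and that variation may be technical.

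Pluripotent stem cells can form every tissue of the embryo. The state is held by a small circuit of transcription factors, with Oct4, Sox2 and Nanog at its centre, and in mouse cultures it is sustained by leukemia inhibitory factor and Wnt signals. Mouse ES cell cultures are mixtures in which single cells drift between a naive state, a state that resembles the early cleavage embryo and states that lean towards trophoblast, endoderm or epiblast. Interferons are cytokines of antiviral defence. They act through receptors, JAK kinases and a complex holding Stat2 and Irf9 that binds a repeated sequence in the promoters of antiviral genes, and pluripotent cells are known for a weak interferon response.

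Of 10748 features tested (9900 named genes, and 848 probes without a gene name that stood for themselves), 930 differed between piPSC and ES (8.65%). A feature was called at an adjusted p under 0.05 in limma and a difference of at least 2-fold, that is 1 on the log2 scale. Of the calls, 464 were higher in piPSC (4.32% of the features tested) and 466 were lower (4.34%). Called genes for which the piPSC mean lay at least 2-fold to the same side of each single ES array, and for which every probe detected in piPSC or ES moved at least 2-fold that way, are referred to as agreeing. They numbered 497 (4.62%), of which 280 were higher (2.61%) and 217 lower (2.02%). The median feature differed by -0.18 on the log2 scale, so a list's median is read against that value, and the 4.32% and 4.34% are the background for the count of calls in any list. The share of higher calls was 49.9%, but it was 65.3% both on the authors' deposited matrix and with a background offset of 50, and 60.5% with arrays scaled to the same median.

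Signals are given as log2 of the background-corrected and quantile-normalized intensity. The lowest detected signal of an array lay between 4.95 and 5.31 on this scale. Between 46.9% and 52.4% of the probes were detected per array. All 7 pluripotency markers fixed for the comparison were detected on all 4 piPSC and ES arrays. Their summed log2 signal was 91.2 and 91.1 in piPSC, 90.5 and 86.1 in ES and 33.9 and 33.1 in OG2-MEF. Of 10 fibroblast markers, 8 were detected in both piPSC and ES, with a summed signal of 81.1 and 80.2 in piPSC and of 80.0 and 80.1 in ES, against 97.4 and 96.6 in OG2-MEF. Postn was not detected on any array, and Fap on neither piPSC array and on 1 ES array. The part of fibroblast RNA in single results was not tested. In RNA from many cells, fewer cells of a type and less RNA per cell cannot be told apart.

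The ES arrays differed from each other more than the arrays of the other groups did. Across features, the SD of the difference between the 2 arrays of a group was 0.570 in ES, 0.204 in piPSC and 0.188 in OG2-MEF. ES replicate 2 lay more than 2-fold below replicate 1 for 495 features and above it for 27. Of those 495 features, 126 were called higher in piPSC and 0 lower in limma, and in 385 of them the piPSC mean also exceeded ES replicate 1. Over the 495, the piPSC mean exceeded ES replicate 1 by a median of 0.49, whereas over all features it lay at -0.11. Among all calls, ES replicate 2 was the lower ES array for 76.3% of the genes higher in piPSC and for 7.73% of the genes lower in piPSC, against 34.6% of all features. The cause of this gap was not tested.

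**Figure D1:**
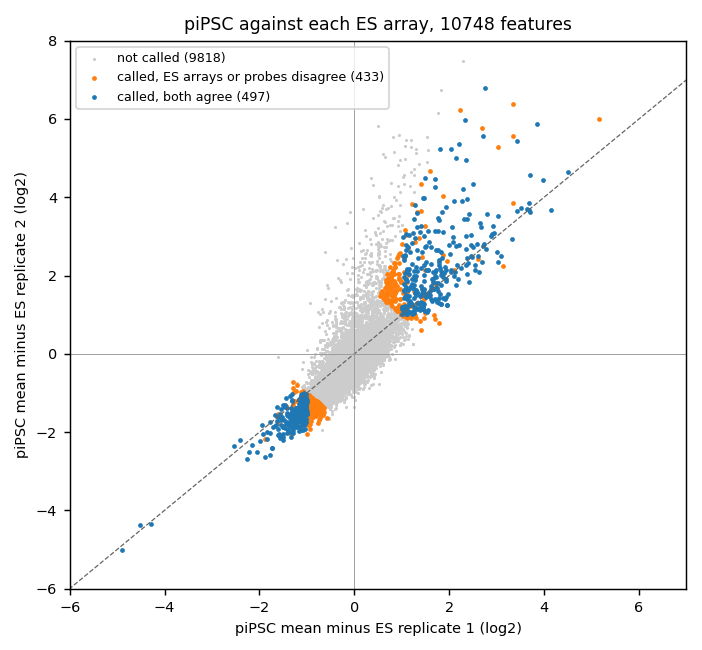
Each point is 1 of 10748 features, placed by the piPSC mean minus ES replicate 1 (x, log2) and minus ES replicate 2 (y, log2); the dashed line marks equal values. The 497 agreeing genes are blue, the other calls orange and the remaining features grey. Features above the line, where ES replicate 2 was the dimmer ES array, spread further than those below it.

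Calls fell short of the agreeing class in different proportions on each side. Of the 464 higher calls, 135 missed the 2-fold mark against an ES array, and a further 49 passed it but had a probe that did not follow. Of the 466 lower calls, 221 missed it against an ES array, and a further 28 passed it but had a probe that did not follow. The ES arrays lay within 2-fold of each other for 337 of the 464 higher calls and 463 of the 466 lower ones. Missing the mark against an ES array therefore does not mean that the ES arrays lay far apart. Among the 141 higher calls with 2 or more informative probes, all probes moved at least 2-fold in 65, of which 52 also passed against both ES arrays, and 35 had a probe of opposite sign. Among the 84 such lower calls, all probes moved in 24, of which 16 passed against both ES arrays, and 19 had a probe of opposite sign. When the 2 ES arrays also had to lie within 2-fold of each other, a count added after the data were seen, 215 higher and 217 lower agreeing genes were left. Leaving out piPSC replicate 1, piPSC replicate 2 or ES replicate 1 changed the count of all calls to 151, 304 or 1800, and that of agreeing genes to 135, 267 or 1512. In such fits the array left alone in its group is assumed to vary like the other groups. Without an ES array, agreement was judged against the other ES array alone, so that count cannot be set beside the agreeing genes defined above. Of the agreeing genes, 95 higher and 41 lower ones were called in each of the 6 fits that left out 1 array, and 21 and 2 of these had 2 or more informative probes. Genes of this kind are marked in the text as held in all 6 fits. Nearly all other agreeing genes lost the call without piPSC replicate 1. Few lost it without an ES array, where the agreement rule had already asked for 2-fold against each. The mark therefore says mainly that a call stood without that piPSC array.

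The 10 largest increases among genes with several agreeing probes covered translation, ion transport, cell survival and metabolism. Eef2, which encodes the elongation factor that moves the ribosome along the mRNA, gave 10.60 and 10.49 in piPSC and 6.56 and 6.10 in ES. All 3 of its probes moved, by 4.06 to 4.74 (difference on the probe used 4.22, SE 0.18, adjusted p = 0.00025). In OG2-MEF the same probe gave 11.72 and 11.67, so ES was the group that stood apart. Slc4a3, an anion exchanger gene, gave 10.56 and 10.74 in piPSC, 6.5 and 6.96 in ES and 6.93 and 7.0 in OG2-MEF. Its 3 probes moved by 2.28 to 4.21 (3.92 on the probe used, SE 0.18, adjusted p = 0.00027), and here piPSC was the group that stood apart. Both genes held in all 6 fits.

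Bcl2l1, which encodes the survival protein Bcl-xL, gave 8.22 and 8.15 in piPSC and was not above background in ES, at 4.67 and 4.46. For such genes the fold is a bound, with each ES array set to its lowest detected signal unless the probe itself was brighter there. By this bound Bcl2l1 stood at least 8.04-fold above ES, its 3 probes moved by 1.02 to 3.62, and the adjusted p was 0.00016. Differences of single probes that were not above background in a group are given as measured, and such values are not exact. Wdr4, a subunit of the enzyme that methylates transfer RNA, was at least 7.47-fold higher on the same basis, with piPSC at 8.15 and 8.0 and ES at 4.65 and 4.42. Acad8, an enzyme of valine breakdown in mitochondria, gave 7.55 and 7.18 against 4.47 and 4.35, at least 4.56-fold (adjusted p = 0.0016). Grk6, a kinase of G protein-coupled receptors, gave 8.24 and 8.07 against 5.35 and 4.60 (3.18, SE 0.25, adjusted p = 0.0015). These 4 genes held in all 6 fits and had OG2-MEF means of 9.50, 7.49, 7.21 and 8.33, closer to piPSC than to ES.

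For the other genes among the 10 largest increases with several agreeing probes, the size of the difference rested more on ES replicate 2. Each of them also lay more than 2-fold above ES replicate 1. Gnas, the gene of the stimulatory G protein alpha subunit, gave 9.74 and 9.36 in piPSC but 7.19 and 4.60 on the ES arrays, so its difference of 3.65 (adjusted p = 0.019) was 2.35 against replicate 1 and 4.95 against replicate 2. Glud1, the mitochondrial glutamate dehydrogenase, gave 11.21 and 11.06 against 9.0 and 6.14 (2.14 against replicate 1 and 4.99 against replicate 2, adjusted p = 0.025). Capn2, a calcium-dependent protease gene, gave 9.11 and 9.10 against 7.61 and 4.62 (adjusted p = 0.045). The calls of these 3 genes were lost without either piPSC array or either OG2-MEF array. Syngr2, a vesicle membrane gene, gave 8.44 and 8.34 against 6.08 and 4.95 (2.87, SE 0.34, adjusted p = 0.00475), and its call was lost without either piPSC array.

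Among genes read by 1 informative probe, the 10 largest increases held 4 that were not above background on either ES array, Maea, Ddx5 and Phgdh, given here, and Apoa2, given with the apolipoproteins. Maea, a subunit of a ubiquitin ligase, gave 8.45 and 8.20 in piPSC and 4.64 and 4.48 in ES (at least 8.89-fold). Ddx5, an RNA helicase gene, gave 8.70 and 8.42 against 4.88 and 4.89 (at least 10.5-fold). Phgdh, the first enzyme of serine synthesis, gave 8.38 and 8.06 against 4.57 and 4.53 (at least 8.27-fold). Maea, Ddx5 and Phgdh had an adjusted p of 0.00025, held in all 6 fits, and were detected in OG2-MEF, at means of 8.84, 6.37 and 10.70. The largest of this class, Snrnp70 (4.87), a protein of the U1 splicing particle, and Eif3c (4.77), a translation initiation subunit, were less even, with ES signals of 6.64 and 4.61 for Snrnp70 and of 8.80 and 4.76 for Eif3c. Gm8909, at 10.08 and 9.79 in piPSC against 6.5 and 4.49 in ES (4.44, adjusted p = 0.0061), is a predicted gene. Hnrnpf, an RNA-binding protein gene, gave 10.33 and 10.23 against 8.07 and 4.91 (adjusted p = 0.028). Eif3c, Hnrnpf, Ddx58 and Nodal, the last 2 described below, had with Gm5643 the widest gaps between the ES arrays among all calls. The calls of Snrnp70, Eif3c, Gm8909 and Hnrnpf were lost without either piPSC array, and those of Eif3c and Hnrnpf also without either OG2-MEF array.

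**Figure D2:**
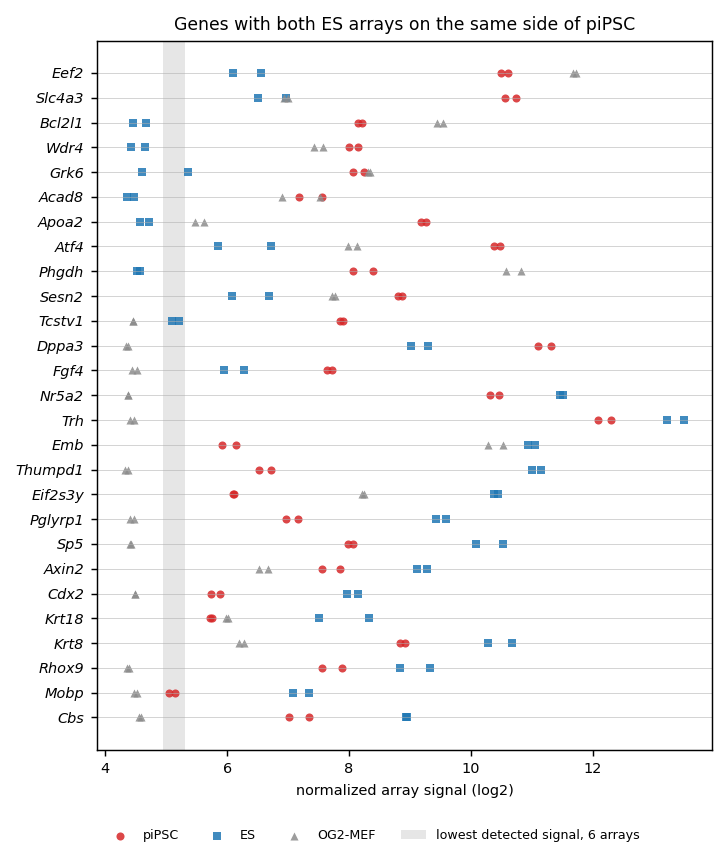
Normalized signal (x, log2) of 27 agreeing genes on each of the 2 piPSC (red circles), 2 ES (blue squares) and 2 OG2-MEF (grey triangles) arrays. The grey band spans the lowest detected signals of the 6 arrays, 4.95 to 5.31; for every gene shown, both piPSC arrays lie on the same side of both ES arrays.

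The core pluripotency factors differed little on the probes used. Nanog gave 13.34 and 13.13 in piPSC and 13.42 and 13.31 in ES (-0.13, SE 0.14, adjusted p = 0.51). Pou5f1, the gene of Oct4, gave 13.82 and 13.85 against 13.44 and 12.60 (0.82, SE 0.26, adjusted p = 0.062). Its second probe gave 12.79 and 13.04 in piPSC but 11.71 and 6.63 on the ES arrays, a gap between the ES arrays that the first probe did not show to this size. Sox2 gave 9.57 and 9.06 against 9.51 and 9.61 (-0.24, SE 0.19, adjusted p = 0.34), while its other probe gave 10.23 and 10.11 against 8.59 and 7.56. The sign for Sox2 therefore depended on the probe taken, and the mean of its probes gave 0.93 (adjusted p = 0.019). Klf4 gave 10.96 and 10.95 against 11.64 and 11.58 (-0.66, SE 0.12, adjusted p = 0.015), short of the 2-fold mark. Myc, the growth regulator often used with these factors in reprogramming, was the exception, at 6.86 and 7.33 in piPSC against 5.91 and 4.50 in ES. Its difference of 1.89 (SE 0.44, adjusted p = 0.026) was called, but the call was lost without either piPSC array or either OG2-MEF array.

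In the naive pluripotency list, 3 of 30 tested genes were called higher, 4 lower and 23 not called, and the median was -0.09. Over all features, 4.32% were called higher and 4.34% lower. Dppa3, a maternal factor that marks the most naive cells of a culture, gave 11.09 and 11.31 in piPSC and 9.02 and 9.29 in ES (2.05, SE 0.15, adjusted p = 0.0012), and held in all 6 fits. Fgf4, the growth factor through which ES cells drive their own differentiation, gave 7.72 and 7.64 against 6.28 and 5.95 (1.56, SE 0.15, adjusted p = 0.0028). Its call was lost without piPSC replicate 1. Prdm14, a repressor of differentiation genes, gave 5.95 and 6.07, with ES not above background at 4.89 and 4.37 (at least 1.78-fold, adjusted p = 0.0068). In the other direction, Nr5a2, a nuclear receptor that acts on the Oct4 gene, gave 10.31 and 10.47 against 11.51 and 11.46, and its 2 probes moved by -1.10 and -1.31 (adjusted p = 0.0043).

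Trh, the hormone gene that is abundant in mouse ES cells, gave 12.30 and 12.09 in piPSC against 13.50 and 13.22 in ES (-1.16, SE 0.15, adjusted p = 0.0061). Tdgf1, the Nodal co-receptor Cripto, was called lower at -1.40 (adjusted p = 0.0099), but its second probe moved by only -0.63. Zfp42, also known as Rex1, showed the ES gap as well, with 11.95 and 11.75 in piPSC against 11.20 and 8.48 in ES (2.01, SE 0.80, adjusted p = 0.1), and was not called. The calls of Prdm14, Trh and Tdgf1 were lost without either piPSC array, and that of Nr5a2 without piPSC replicate 1.

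Among 34 tested interferon effectors, the antiviral genes that interferon induces, 15 were called higher and 0 lower, beside 4.32% and 4.34% of all features. The list's median difference was 0.91, beside -0.18 over all features, and 12 of the 15 agreed across ES arrays and probes. The remaining 19 were not called in limma. The count was 6 without piPSC replicate 1 and 9 without piPSC replicate 2, and it was 13 among features whose ES arrays lay within 2-fold of each other. The list was chosen with results of these data known, so its count is a description.

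Usp18, the protease that removes Isg15 from proteins and damps the receptor, was read by 3 probes, of which 2 moved by 2.32 and 2.51 and the last gave 9.36 and 9.09 in piPSC while not above background in ES. On the probe used it gave 11.33 and 11.31 in piPSC, 8.96 and 9.04 in ES and 5.97 and 6.15 in OG2-MEF (2.32, SE 0.13, adjusted p = 0.0005). Both ES arrays lay well below both piPSC arrays and within a narrow range of each other. Isg15, the ubiquitin-like modifier itself, gave 10.83 and 10.94 in piPSC, 8.78 and 8.89 in ES and 6.35 and 5.90 in OG2-MEF (2.05, SE 0.18, adjusted p = 0.0019). Ube2l6, the enzyme that carries Isg15 to its targets, gave 8.0 and 7.78 against 6.02 and 4.78 (2.49, SE 0.38, adjusted p = 0.0087). Ifi35, an interferon-induced leucine zipper protein, gave 8.34 and 8.34 against 6.72 and 5.62 (2.17, SE 0.33, adjusted p = 0.0091). The calls of Ube2l6 and Ifi35 were lost without either piPSC array, whereas Usp18 and Isg15 held in all 6 fits.

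The genes described next were named after their values were seen, because several probes agreed or because their promoters are shown. Ifit3, part of a protein complex that binds foreign RNA, gave 11.57 and 11.39 in piPSC and 9.77 and 9.49 in ES (1.85, SE 0.15, adjusted p = 0.0016). Its other 2 probes were not above background in ES, at 4.44 to 4.84, and gave 7.84 to 8.31 in piPSC. Oasl2 and Oas2, of the family that senses double-stranded RNA, differed by 1.79 and 1.84 (adjusted p = 0.0011 and 0.0013), with piPSC at 10.80 and 10.62 against 8.88 and 8.95 for Oasl2. Ifit3, Oasl2 and Oas2 held in all 6 fits. Bst2, also called tetherin, which holds budding virus at the cell surface, gave 10.14 and 10.64 against 8.64 and 8.70 (1.72, SE 0.25, adjusted p = 0.0079), a call lost without either piPSC array. Rsad2, the antiviral enzyme viperin, gave 7.60 and 7.52 against 6.40 and 6.30 (1.21, SE 0.14, adjusted p = 0.0041), and Igtp, a GTPase against vacuolar pathogens, gave 9.23 and 9.0 against 7.95 and 7.86 (1.21, SE 0.15, adjusted p = 0.0051). The calls of Rsad2 and Igtp were lost without piPSC replicate 1.

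The promoters of 25 tested interferon effectors were in the RefSeq promoter table (build GRCm38.p6, 300 bases around each gene's start). The motif searched was the core of the interferon-stimulated response element, the letters GAAA, then any 2 bases, then GAAA, on both strands, with overlapping copies counted. It was found in 6 of 12 promoters of called effectors (50%) and in 7 of 13 promoters of effectors not called (53.8%). It was also in 3.99% of all 27025 promoters listed and in 3.59% of the promoters of tested genes. The motif was therefore common in the list whether or not a gene was called. The agreeing genes with more than 1 copy are shown as examples of this motif, which part of the list lacks, with the motif in capitals. The first copy began at -78 in Isg15, at -156 in Ifit3 and at -130 in Bst2, counted from the gene's start.
Isg15 promoter, chr4:156200769-156201068, minus strand: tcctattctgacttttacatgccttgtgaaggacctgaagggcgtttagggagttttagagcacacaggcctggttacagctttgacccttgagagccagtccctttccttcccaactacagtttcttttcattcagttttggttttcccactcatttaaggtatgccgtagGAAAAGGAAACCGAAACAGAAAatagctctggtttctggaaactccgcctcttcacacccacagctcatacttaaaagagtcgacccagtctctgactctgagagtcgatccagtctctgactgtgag
Ifit3 promoter, chr19:34583279-34583578, plus strand: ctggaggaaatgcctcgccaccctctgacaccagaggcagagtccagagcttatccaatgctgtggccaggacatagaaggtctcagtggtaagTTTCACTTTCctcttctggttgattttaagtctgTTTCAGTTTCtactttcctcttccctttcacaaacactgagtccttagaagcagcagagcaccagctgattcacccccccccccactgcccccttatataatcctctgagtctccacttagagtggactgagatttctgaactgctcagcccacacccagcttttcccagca
Bst2 promoter, chr8:71537423-71537722, minus strand: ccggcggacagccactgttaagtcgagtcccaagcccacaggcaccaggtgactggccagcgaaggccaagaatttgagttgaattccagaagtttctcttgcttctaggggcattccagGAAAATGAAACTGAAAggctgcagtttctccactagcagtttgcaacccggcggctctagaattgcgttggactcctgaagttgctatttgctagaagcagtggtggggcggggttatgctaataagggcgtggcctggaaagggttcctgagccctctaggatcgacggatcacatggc
Isg15 held 3 overlapping copies, Ifit3 2 separate ones and Bst2 2 overlapping ones. Rsad2 and Igtp held 1 copy each, and Gbp3, a guanylate-binding protein gene whose probes moved by 0.87 and 1.05, held 2. A match describes letters only and is not evidence of binding.

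**Figure D3:**
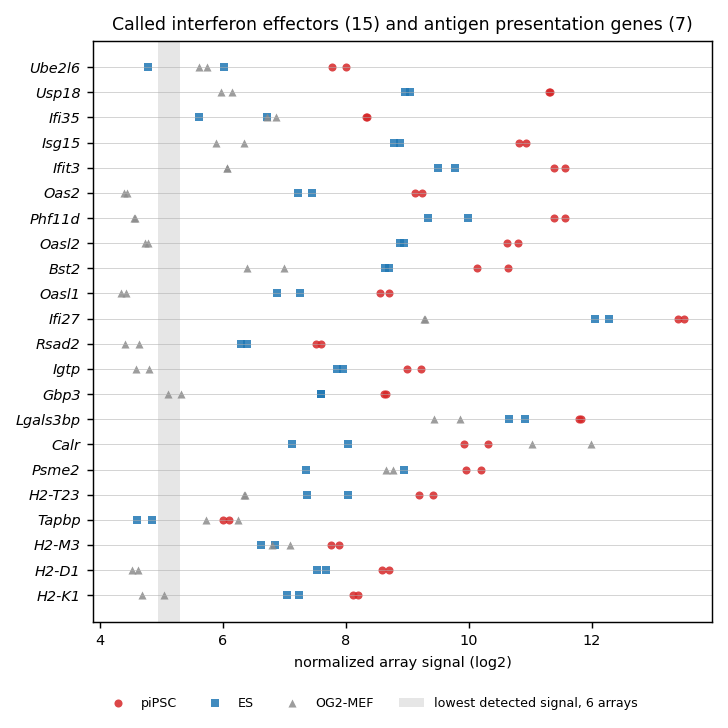
Normalized signal (x, log2) of the 15 interferon effectors and the 7 antigen presentation genes called higher in piPSC, on each of the 2 piPSC (red circles), 2 ES (blue squares) and 2 OG2-MEF (grey triangles) arrays; the grey band spans the lowest detected signals, 4.95 to 5.31. Usp18 lies at 11.3 in piPSC and near 9 in ES, and for each gene both piPSC arrays lie above both ES arrays.

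The sensors and signal carriers upstream held calls in both directions. Of 16 tested genes, 3 were called higher and 1 lower, beside 4.32% and 4.34% of all features, with a median of 0.28. Irf9, the DNA-binding part of the interferon-activated complex, gave 9.77 and 9.83 in piPSC and 8.57 and 8.11 in ES, and its 2 probes moved by 1.46 and 2.34 (adjusted p = 0.0054, lost without either piPSC array). Ddx58, which encodes the viral RNA sensor RIG-I, gave 10.15 and 9.90 against 8.0 and 4.8, so its difference was 2.03 against ES replicate 1 and 5.23 against replicate 2 (adjusted p = 0.033). Irf7, the factor that amplifies interferon production, gave 7.40 and 7.35 against 5.97 and 6.75 (1.01, adjusted p = 0.032). Ifngr2, a chain of the interferon gamma receptor, was called lower at -1.53 (adjusted p = 0.029), but its 3 probes ranged from -1.53 to 0.81. The calls of Ddx58, Irf7 and Ifngr2 were lost without either piPSC array or either OG2-MEF array, and that of Irf7 also without ES replicate 1.

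Antigen presentation by MHC class I, which interferon also raises in many cells, held higher calls too. Of 16 tested genes, 7 were called higher and 0 lower, beside 4.32% and 4.34% of all features, with a median of 0.76, and 3 of the 7 agreed. The count was 0 without piPSC replicate 1 or replicate 2, and 3 on the authors' matrix or with an offset of 50. Calr, a chaperone that loads class I molecules, gave 10.31 and 9.93 against 8.04 and 7.13 (2.53, SE 0.40, adjusted p = 0.01). Psme2, an activator of the proteasome that interferon gamma induces, gave 10.20 and 9.96 against 8.94 and 7.36 (1.93, SE 0.46, adjusted p = 0.03). Tapbp, the peptide-loading protein tapasin, gave 6.1 and 6.0 with ES not above background at 4.60 and 4.84 (at least 1.83-fold, adjusted p = 0.0089). Of the class I genes on the list, H2-D1 gave 8.70 and 8.59 against 7.68 and 7.53 (1.04, SE 0.13, adjusted p = 0.0054), and H2-K1 gave 8.20 and 8.11 against 7.05 and 7.24 (1.02, SE 0.16, adjusted p = 0.01). The call of H2-D1 was also lost without ES replicate 2, and that of H2-K1 without ES replicate 1. H2-T23, a non-classical class I gene, differed by 1.61 (adjusted p = 0.0076), with its second probe at 0.90. Outside the list, and named after their values were seen, the class I genes H2-Q8 (2.46, adjusted p = 0.0032, held in all 6 fits), H2-T10 (1.80, adjusted p = 0.0077) and H2-Q5 (1.29, adjusted p = 0.0054) were called and agreed. Class I genes have close relatives, so a probe may read more than 1 of them.

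Genes of the 2-cell-like state, which a minor share of mouse ES cells switch on at any time, were higher in piPSC where they were called. Of 8 tested, 3 were called higher and 0 lower (median 0.77), beside 4.32% and 4.34% of all features. Tcstv1 gave 7.91 and 7.85 in piPSC and 5.10 and 5.21 in ES (2.72, SE 0.12, adjusted p = 0.00025), and held in all 6 fits. Zscan4c, a factor linked to telomere upkeep, gave 9.19 and 8.88 against 7.28 and 5.56 (2.62, SE 0.51, adjusted p = 0.016). Tcstv3 gave 8.47 and 8.12 against 6.91 and 7.45 (1.12, adjusted p = 0.016). Without either OG2-MEF array or either piPSC array, the count fell to 1. Tcstv1 and Tcstv3 lie on chromosome 13, which is described below, and such gene families share sequence.

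Of 24 tested genes of the ATF4 response, which supplies amino acids under stress, 4 were called higher and 1 lower. The shares over all features were 4.32% and 4.34%. Atf4, the factor itself, gave 10.47 and 10.37 in piPSC, 6.73 and 5.85 in ES and 8.13 and 7.99 in OG2-MEF (4.14, SE 0.28, adjusted p = 0.00085). Sesn2, a sensor of leucine that ATF4 and p53 can induce, gave 8.86 and 8.81 against 6.68 and 6.08, and its 2 probes moved by 1.80 and 2.45 (adjusted p = 0.0017). Atf4, Sesn2 and Phgdh, which is also on the list, held in all 6 fits. Trib3, a pseudokinase that feeds back on ATF4, gave 6.31 and 6.26 with ES not above background (at least 2.16-fold, adjusted p = 0.0032, lost without piPSC replicate 1). Slc7a11, the cystine transporter, went the other way, at 6.33 and 6.12 against 7.35 and 7.69 (-1.29, SE 0.16, adjusted p = 0.0054), a call lost without either piPSC array. The list's median was 0.12, and its other 19 genes were not called.

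Apoa2, an apolipoprotein of high-density particles that liver and yolk sac make, was not above background in ES. It gave 9.17 and 9.27 in piPSC, 4.72 and 4.56 in ES and 5.62 and 5.47 in OG2-MEF (at least 16.5-fold, adjusted p = 7.3e-05, held in all 6 fits). Of 9 tested apolipoprotein genes, 3 were called higher and 0 lower, beside 4.32% and 4.34% of all features. Besides Apoa2 these were Apoe, with 11.71 and 11.75 against 10.72 and 10.53 (1.10, SE 0.18, adjusted p = 0.01), and Apod, with 8.54 and 8.27 against 7.09 and 5.16 (2.28, SE 0.56, adjusted p = 0.031). The calls of Apoe and Apod were lost without either piPSC array. Of 18 tested endoderm genes, read against the same shares, 2 were called higher, Apoa2 and Apoe, and 1 lower. The lower one was Amn, a partner of the vitamin B12 receptor cubilin (-1.41, adjusted p = 0.0068, also lost without either piPSC array). Of 6 extraembryonic endoderm markers, Gata6, Sox7 and Dab2 were detected on both arrays of piPSC and of ES, Gata4 on 1 piPSC array, and Sox17 and Foxa2 on no array.

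Among genes lower in piPSC, 3 stood far from the rest. Emb, the gene of embigin, a membrane partner of lactate transporters, gave 6.14 and 5.92 in piPSC, 10.94 and 11.04 in ES and 10.52 and 10.28 in OG2-MEF (-4.96, SE 0.15, adjusted p = 7.3e-05). Thumpd1, an adaptor for acetylation of transfer RNA, gave 6.73 and 6.52 against 11.15 and 11.01 (-4.46, SE 0.14, adjusted p = 7.3e-05), and was not above background in OG2-MEF, at 4.37 and 4.32. Eif2s3y, a translation initiation gene of the Y chromosome, gave 6.10 and 6.09 against 10.38 and 10.44, with OG2-MEF between them at 8.20 and 8.24 (-4.31, SE 0.12, adjusted p = 7.3e-05). In each of these genes the 2 arrays of every group lay close together, and each held in all 6 fits. The next largest agreeing decrease was -2.47, that of Hps1.

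Of the other Y-linked genes, Sly, a gene of a multicopy family active in sperm formation, was also called lower and agreed, at 4.48 and 4.56 in piPSC, where it was not above background, against 5.6 and 6.15 in ES (at least 1.87-fold, adjusted p = 0.0077, lost without either piPSC array). Uty, a histone demethylase homologue, gave 5.67 and 5.61 in piPSC, 6.15 and 6.36 in ES and 5.62 and 5.74 in OG2-MEF (-0.61, SE 0.13, adjusted p = 0.023), and Kdm5d, also a demethylase gene, differed by -0.08 (adjusted p = 0.76). Xist, the X inactivation RNA, differed by 0.12 (adjusted p = 0.65). Neither Kdm5d nor Xist was detected on both arrays of piPSC or of ES. In the imprinted Dlk1-Dio3 cluster, Dlk1 differed by 0.71 (adjusted p = 0.045), short of 2-fold, and Dio3 by -0.28 (adjusted p = 0.19).

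The other large decreases among genes with 1 informative probe covered several roles. Pglyrp1, which binds bacterial peptidoglycan, gave 6.97 and 7.17 in piPSC and 9.60 and 9.43 in ES (-2.45, SE 0.14, adjusted p = 0.00052). Hps1, needed for lysosome-related organelles, gave 5.81 and 5.35 against 7.84 and 8.26 (-2.47, SE 0.22, adjusted p = 0.0019). Chmp1a, of the membrane-cutting ESCRT machinery, was not above background in piPSC at 4.69 and 4.91, against 7.22 and 7.01 in ES (at least 4.41-fold lower, adjusted p = 0.00084). Cit, a kinase of cell division, was not above background in piPSC either, at 4.73 and 4.56 against 6.53 and 7.29 (at least 3.83-fold lower, adjusted p = 0.0037, lost without piPSC replicate 1). Pglyrp1, Hps1 and Chmp1a held in all 6 fits.

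Decreases read by several agreeing probes were smaller. Mobp, a myelin gene of the brain, gave 5.15 and 5.04 against 7.08 and 7.33, with its 2 probes at -2.11 and -1.35 (adjusted p = 0.00085). Cbs, the enzyme that turns homocysteine into cystathionine, gave 7.01 and 7.34 against 8.96 and 8.93, with 2 probes at -1.81 and -1.76 (adjusted p = 0.0018). Both held in all 6 fits. Dido1, a chromatin protein linked to ES cell differentiation, gave 6.28 and 6.5 against 7.89 and 8.45, with 3 probes between -1.78 and -1.22 (adjusted p = 0.0054, lost without piPSC replicate 1). Acad10, Atp2a3, Cdc25c, Thnsl2, Wiz, Unc45b and Dnaic1 completed the 10 largest of this class, with differences from -1.69 to -1.34.

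Trophoblast and Rhox genes that were called were all lower in piPSC. Of 11 tested, 5 were called lower and 0 higher, beside 4.34% and 4.32% of all features, with a median of -0.49, and 4 of the 5 agreed. Cdx2, the transcription factor that sets up trophectoderm, gave 5.88 and 5.73 in piPSC and 7.97 and 8.14 in ES (-2.25, SE 0.13, adjusted p = 0.00068, held in all 6 fits). The simple epithelial keratin genes moved with it: Krt18 gave 5.75 and 5.72 against 7.51 and 8.33 (-2.18, SE 0.26, adjusted p = 0.0048), and Krt8 gave 8.83 and 8.91 against 10.27 and 10.67 (-1.60, SE 0.16, adjusted p = 0.0032). Rhox9, an X-linked homeobox gene of placenta and germ cells, gave 7.55 and 7.88 against 8.84 and 9.33 (-1.37, SE 0.20, adjusted p = 0.0085). Rhox6 was called at -1.15 but lay within 2-fold of ES replicate 1. The trophoblast markers Elf5 and Hand1 were not detected in either group, and Gata3 was detected in both. Without piPSC replicate 1 or replicate 2 the count was 1 or 2.

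Targets and carriers of Wnt signalling showed the same direction in a short list, with 3 of 8 tested genes called lower and 0 higher, beside 4.34% and 4.32% of all features, and a median of -0.46. Sp5, a transcription factor that Wnt induces, gave 8.06 and 7.99 in piPSC and 10.08 and 10.53 in ES (-2.28, SE 0.17, adjusted p = 0.0013, held in all 6 fits). Axin2, the feedback inhibitor most used as a readout of the pathway, gave 7.56 and 7.86 against 9.12 and 9.28 (-1.49, SE 0.15, adjusted p = 0.0032). Tcf7l2, a DNA-binding partner of beta-catenin, was called at -1.23 (adjusted p = 0.0032), but its second probe moved by -0.79. Without piPSC replicate 1 the count was 1, that of Sp5. In the germ cell list, read against the same shares, 3 of 16 were called lower and 0 higher, Rhox9, Rhox6 and Mov10l1, a helicase of the piRNA pathway (-1.68, SE 0.17, adjusted p = 0.0032, held in all 6 fits). In the immediate early list, 1 of 16 tested genes was called higher and 1 lower, with a median of -0.54. The lower one, Fos, gave 9.44 and 9.80 against 11.30 and 11.46 (-1.76, SE 0.16, adjusted p = 0.0023, held in all 6 fits).

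The calls were not spread evenly over the genome. Genes of chromosomes 13 and 14 stood higher in piPSC relative to ES as whole chromosomes. The median difference of the 361 tested genes of chromosome 13 lay 0.32 above the median of all features, and that of the 338 genes of chromosome 14 lay 0.29 above it. The other 18 chromosomes with tested genes, 1 to 12, 15 to 19 and X, lay between -0.06 and 0.03. Chromosome Y, with 5 tested genes of which 2 were called lower, is left out of these ranges, and its median difference was -0.61. On chromosome 13, 77.6% of genes lay above the median of all features, and on chromosome 14, 74.6%, against 43.6% to 52.0% on the others. Of the genes on chromosome 13, 9.14% were called higher and 1.39% lower, and on chromosome 14, 10.7% and 1.78%. On the others, 1.44% to 5.01% were called higher and 2.27% to 5.98% lower.

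The shift was alike in all 4 pairs of a piPSC and an ES array, 0.301 to 0.325 on chromosome 13 and 0.290 to 0.310 on chromosome 14. It was present in each of 3 successive parts of the tested genes along the chromosome, at 0.277 to 0.339 and 0.271 to 0.318. Against OG2-MEF, in comparisons that share those fibroblast arrays, the chromosome 13 median stood 0.07 above that of all features in piPSC and at -0.21 in ES, and the chromosome 14 median stood 0.32 above it in piPSC and at -0.01 in ES. The other chromosomes ranged from -0.18 to 0.17 in piPSC and from -0.11 to 0.21 in ES in those comparisons. With no filter on dim probes, which raised the features from 10748 to 18309, the shifts fell to 0.063 and 0.065. Among features detected on at least 1 array of piPSC and at least 1 of ES, they were 0.352 and 0.326. No test was made of these shifts, and their cause was not tested.

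**Figure D4:**
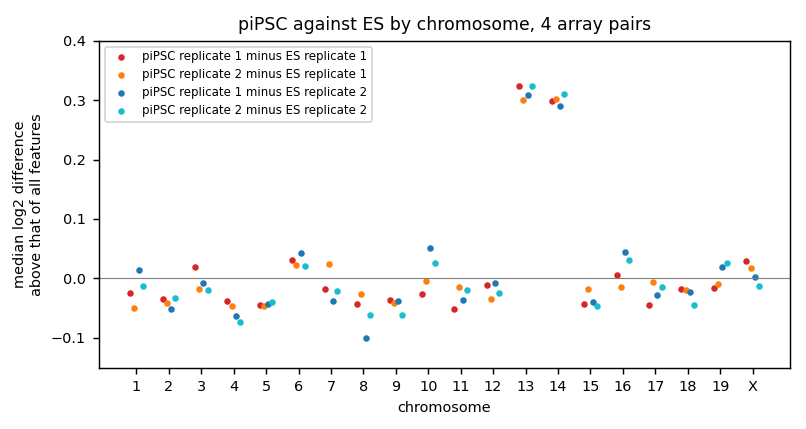
Median log2 difference of the tested genes of each chromosome above the median of all features (y), for each of the 4 pairs of 1 piPSC and 1 ES array (colours). Chromosomes 13 and 14 lie between 0.290 and 0.325 in every pair, and the other chromosomes shown lie near 0. Chromosome Y is not shown.

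Several genes already described lie on these chromosomes, among them Grk6, Tcstv1 and Tcstv3 on chromosome 13 and Glud1, Psme2, Irf9 and the interferon effector Phf11d on chromosome 14. Emb, on chromosome 13, ran against the shift. The agreeing increases with several probes there, named after their values were seen, included Apex1, the main repair enzyme for lost DNA bases, at 13.51 and 13.30 in piPSC and 11.62 and 11.13 in ES (2.03, SE 0.19, adjusted p = 0.0026). Slc7a7, an amino acid transporter subunit, gave 8.88 and 8.82 against 6.40 and 6.07 (2.61, SE 0.17, adjusted p = 0.00084). Sox21, a Sox-family transcription factor known from the early mouse embryo, gave 9.66 and 9.67 against 7.85 and 8.15 (1.67, SE 0.16, adjusted p = 0.0025). Apex1, Slc7a7 and Sox21, all on chromosome 14, held in all 6 fits. A call needed a difference of at least 2-fold, so the selection itself placed these genes above the chromosome's median shift. Zic2, a primed pluripotency gene of the same chromosome, gave 8.61 and 8.96 against 6.48 and 4.57 (3.26, SE 0.56, adjusted p = 0.012, lost without either piPSC array).

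Most other lists held few calls. In the fibroblast and mesenchyme list, 3 of 42 tested genes were called higher and 0 lower, with a median of 0.16. The shares over all features, 4.32% and 4.34%, stand beside this and the next counts. The 3 called genes were Thbs1, a matrix glycoprotein, at 8.31 and 8.26 against 5.91 and 4.85 (2.91, SE 0.32, adjusted p = 0.004), Msn, which ties the membrane to actin, at 8.32 and 8.18 against 6.32 and 4.49 (2.84, SE 0.54, adjusted p = 0.015), and Timp3, a protease inhibitor (1.25, SE 0.15, adjusted p = 0.0049). All 3 were higher still in OG2-MEF. Their calls were lost without piPSC replicate 1, and that of Msn also without piPSC replicate 2 or either OG2-MEF array. Among 22 Hox genes, 30 heat shock and chaperone genes, 8 neural, 6 macrophage and 7 endothelial genes, 0 were called in either direction in limma. In oxidative phosphorylation 1 of 51 was called higher and 0 lower, and among cytosolic ribosomal proteins 0 of 52 were called higher and 1 lower. Of 70 mitochondrial ribosomal protein genes, 2 were called higher and 1 lower.

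In FGF-ERK signalling, 3 of 13 were called higher and 0 lower, beside 4.32% and 4.34% of all features. These were Fgf4, Etv5 and Spry4, but Etv5 and Spry4 lay within 2-fold of ES replicate 1, at 0.67 and 0.71. The calls of Etv5 and Spry4 were lost without either piPSC array, either OG2-MEF array or ES replicate 2. In BMP signalling, read against the same shares, 2 of 12 were called higher and 1 lower, Msx2 (at least 2.03-fold), Id1 (1.12, adjusted p = 0.0054) and Bmp7 (-1.22, adjusted p = 0.0032), all lost without piPSC replicate 1. Nodal, the secreted factor of the Nodal pathway, gave 10.00 and 9.87 in piPSC but 8.13 and 4.7 in ES (adjusted p = 0.042), so its difference was 1.80 or 5.24 depending on the ES array. The call of Nodal was lost without either piPSC array or either OG2-MEF array.

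**Figure D5:**
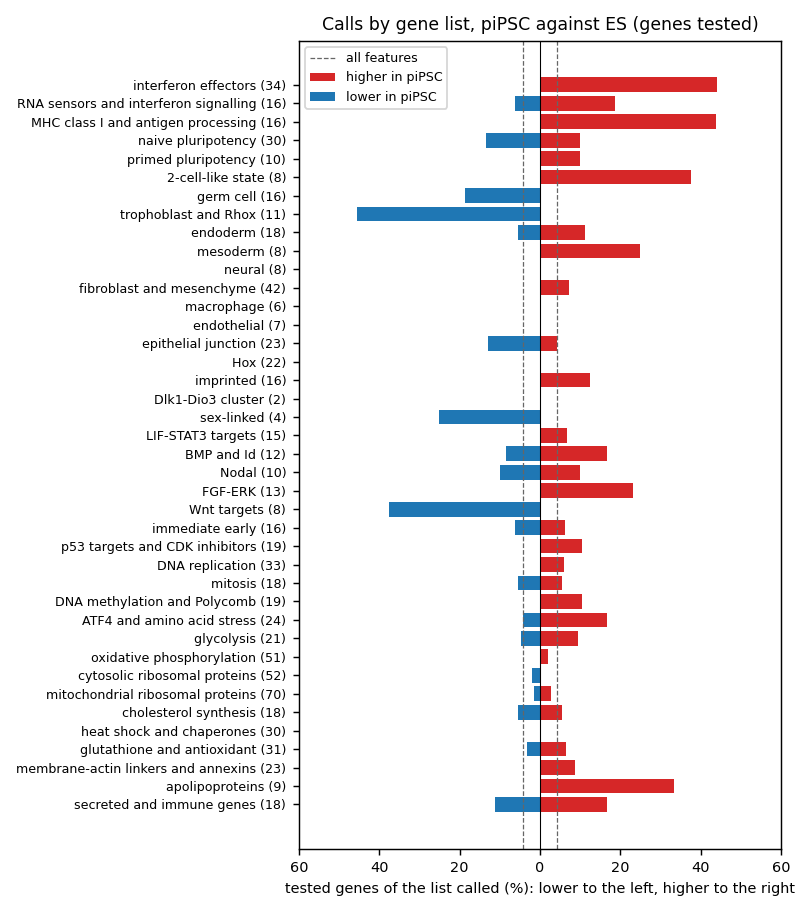
Share of the tested genes of each of 40 lists called higher in piPSC (red, to the right) or lower (blue, to the left), with the number tested in brackets; the dashed lines mark the shares over all features, 4.32% and 4.34%. Interferon effectors (15 of 34) and antigen presentation (7 of 16) reach furthest to the right, and trophoblast and Rhox genes (5 of 11) furthest to the left.

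Some of the largest called differences rested on some of a gene's probes. Tsc22d1, a leucine zipper gene that TGF-beta induces, gave 10.86 and 10.40 in piPSC and 5.48 and 4.63 in ES (5.58, SE 0.31, adjusted p = 0.0005) on the probe used, but 0.72 on its other one. Rbbp7, a histone-binding subunit of chromatin complexes, gave 11.50 and 11.30 against 8.05 and 5.03 (4.86, adjusted p = 0.013). Its other probes moved by 4.46, 5.36 and -0.87, and the last of these gave 7.56 and 7.70 in ES, where the others fell to background on replicate 2. Hnrnpk, an RNA-binding protein gene, gave 11.34 and 11.26 against 8.60 and 5.53, whereas its other 2 probes moved by -0.60 and -0.12. Hnrnpa2b1 differed by 4.16 on 1 probe and by -0.67 on the other, and Nsdhl, an enzyme of cholesterol synthesis, by 2.81 to 3.60 on 3 probes and by -0.42 on the fourth. Tuba3a, a tubulin gene, was called at 1.00 on the probe used, with its probes from 0.70 to 5.38. The call of Tsc22d1, which is no agreeing gene, was kept whichever array was left out. The calls of the other 5 genes were lost without either piPSC array, and those of Hnrnpk, Nsdhl and Tuba3a also without either OG2-MEF array. That of Tuba3a was lost without ES replicate 2 as well. The cause of such splits within a gene was not tested.

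The fibroblast arrays give a further point for the agreeing genes. Of the 280 higher in piPSC, OG2-MEF lay within 2-fold of piPSC for 108 and within 2-fold of ES for 79, more than 2-fold above both for 50 and below both for 48. Of the 217 lower in piPSC, it lay within 2-fold of piPSC for 115 and of ES for 45, above both for 8 and below both for 64. OG2-MEF was not above background for 62 of the higher and 82 of the lower genes. A gene could count as within 2-fold of both piPSC and ES, so these counts overlap. The same counts over all features are not given here, and probes were chosen partly by their OG2-MEF signal, so the counts are descriptions only. Eef2, Bcl2l1 and Phgdh are examples of genes whose fibroblast signal exceeded that of both pluripotent groups, and Usp18, Dppa3 and Cdx2 of genes whose fibroblast signal lay below both.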

How the data were processed

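The 6 samples were 2 arrays each of piPSC, ES and OG2-MEF cells, grouped by their titles. The deposited table held, per the file headers, 1 signal intensity and 1 detection p-value for each of 25697 probes on each array, before any normalization by the authors. The detection p-value moved in steps of 1 in 798. Log2 values in the authors' deposited matrix matched a quantile normalization of the log2 intensities without background correction to within 0.0012. The scanner and its software are not given in the sources used here, and all columns were mapped to a sample.

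Background was removed from the intensities by normexp, using detection p-values and an offset of 16, before quantile normalization and log2 transformation (neqc, limma 3.58.1, R 4.3.3). Of the probes, 23978 were named (23962 through an Entrez ID, 9 through an accession and 7 from the array's annotation) and 1719 stayed unnamed. Gene names, chromosomes and promoters came from RefSeq tables of GRCm38.p6. Probes had to reach a detection p under 0.05 on both arrays of some group. A gene was represented by its brightest such probe, averaged over the 6 arrays, so that a call never mixes probes, and unnamed probes stood for themselves. Limma was fitted to 3 group means (3 residual degrees of freedom, prior 3.33) and p-values were adjusted by Benjamini-Hochberg over 10748 features. The fit assumes the same spread of a gene in all 3 groups, although the ES arrays differed more from each other. The fit was tested on simulated data with normal noise at the median SD of each group. That setting leaves out the wide gaps between the ES arrays, so it does not show how the fit handles them. Precision is limited by how few arrays there are.

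The genes named were the 10 largest agreeing differences each way with 1 and with more probes, the largest members of each list, the reprogramming factors, sex-linked and Dlk1-Dio3 genes, and the 5 calls with the widest gaps between ES arrays and between probes. Those outside this rule are said to be so or stand beside a list's count. The members, lists and rules were chosen with earlier results of these data known. Alternatives covered normalization, offset, scaling, detection filter, probe choice, arrays in the fit, array weights, a replicate block, the test, the fold and each array left out.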

Additional observations from a re-analysis of the deposited data

How the results depend on the processing

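Against 930 changed features (464 higher, 466 lower), 497 agreeing ones (280 higher, 217 lower) and 15 interferon effectors, the counts moved by over 1.5 times as follows. The authors' matrix gave 614 changed and 213 lower, with 305 agreeing and 91 agreeing lower. An offset of 50 gave 519 changed and 180 lower, with 265 agreeing and 75 agreeing lower. Median scaling gave 306 lower, and the 4 piPSC and ES arrays alone gave 298 higher. At 3-fold, 274 were changed (218 higher, 56 lower), 234 agreed (182 higher, 52 lower) and 9 interferon effectors were called. Limma's treat against 2-fold gave 72 (59 higher, 13 lower), of which 67 agreed (54 higher, 13 lower), with 1 interferon effector, and the share of higher calls was 79.6% at 3-fold and 81.9% with treat. Leaving out 1 array gave 151 to 1800 changed, 104 to 911 higher, 47 to 889 lower, 135 to 1512 agreeing, 92 to 729 agreeing higher, 43 to 783 agreeing lower and 6 to 16 interferon effectors, lowest without piPSC replicate 1 and highest without ES replicate 1. The remaining settings kept each of these counts within 1.5 times. Where an ES array was left out, agreement was judged against the other ES array alone, so those agreeing counts are of another kind.

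Of 124 genes named, in 20 settings, 2080 values kept their direction and call, 377 lost the call, 2 gained it and 15 changed sign. Those were Sox2 (0.93 with the mean of probes, -0.50 to 2.61 when 1 array was left out), Nsdhl (-0.42 when the probe was chosen on piPSC and ES arrays or only these were fitted, -0.61 to 3.85 when 1 array was left out), Ifngr2 (0.020 with the mean of probes), Xist (-0.016 with the mean of probes, -0.15 to 0.38 when 1 array was left out), Kdm5d (-0.27 to 0.12 when 1 array was left out) and Sox7 (-0.017 to 0.57 when 1 array was left out). For Sox2 and Nsdhl the probe standing for the gene changed; for the others the cause was not tested. The shift of chromosome 13 ranged from 0.256 to 0.360 and that of chromosome 14 from 0.234 to 0.337, apart from 0.063 and 0.065 with no detection filter, alternatives added after the data were seen, as was the count with ES arrays within 2-fold. Deviations of replicate 1 from its group mean correlated across features at 0.01 between piPSC and ES. In the other pairs of groups these deviations correlated at 0.06 and 0.25, so the numbers were not taken to pair samples. The replicate block gave 948 changed, 500 agreeing and 15 interferon effectors. Probes near the lowest detected signal have only a bound, which limits what can be said of dim genes.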
